A study of Mus musculus with 31 samples.

Results

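The mice described here are 10 of the 16 Control mice in a study of the basolateral amygdala (BLA), chosen by their level of Fos. Control mice were ranked by the Fos count divided by the library total, as CPM (reads of a gene relative to all reads of that library), and the 5 highest and the 5 lowest were taken. They are called high-Fos and low-Fos mice below. The whole series holds 31 mice, of which 15 are labelled CYFIP OE and carry a human CYFIP1 transgene on a bacterial artificial chromosome in 1 of 2 lines, labelled 1 and 3. Control mice are the littermates without the transgene from the same lines, aged 58 to 61 days, and CYFIP OE mice were aged 58 to 77 days. The labels name no treatment for any mouse, some mice of the study took part in behavioural tests that the labels do not mark, and each library came from left and right BLA punches, cut around the visible white matter, of a single mouse, pooled and sequenced by QuantSeq, which reads the 3′ ends of transcripts. Since the Fos level itself picked the 2 groups, their difference in Fos is not a result, and every difference between them is a description without a test. Tests were run on Fos in the CYFIP OE mice only, which the selection did not use.

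Fos encodes a transcription factor that pairs with members of the Jun family to form AP-1. It is an immediate early gene, transcribed within minutes of neuronal firing from a promoter that reads calcium and cyclic AMP signals through CREB and growth factor signals through serum response factor, without new protein synthesis. Egr1, Arc, Npas4, Nr4a1, Junb and Dusp1 belong to the same early wave, and in the amygdala Fos and Arc are widely used as marks of neurons active during fear learning. A later wave of secreted and synaptic genes, Bdnf among them, follows.

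Fos in the high-Fos mice was 14.8, 13.5, 12.9, 12.4 and 9.46 CPM, and in the low-Fos mice it was 5.51, 5.10, 3.97, 3.93 and 3.48 CPM. The mean was 12.6 ± 1.97 CPM (SD, n = 5) against 4.40 ± 0.863 CPM (SD, n = 5). These levels rest on few reads, between 69 and 106 in the high-Fos and between 24 and 44 in the low-Fos libraries. The 6 mice between the groups ran from 5.65 to 8.99 CPM. The edges of the groups were closer than counting error. The lowest of the high-Fos mice, Control mouse 12, had 9.46 CPM with an exact 95% Poisson interval of 7.36 to 12, and the next mouse, Control mouse 1, had 8.99 with an interval of 7.11 to 11.2. At the lower edge Control mouse 10, with 5.51 CPM (3.97 to 7.45), was taken and Control mouse 7, with 5.65 CPM (4.10 to 7.58), was not. These intervals cover counting error only.

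**Figure D1:**
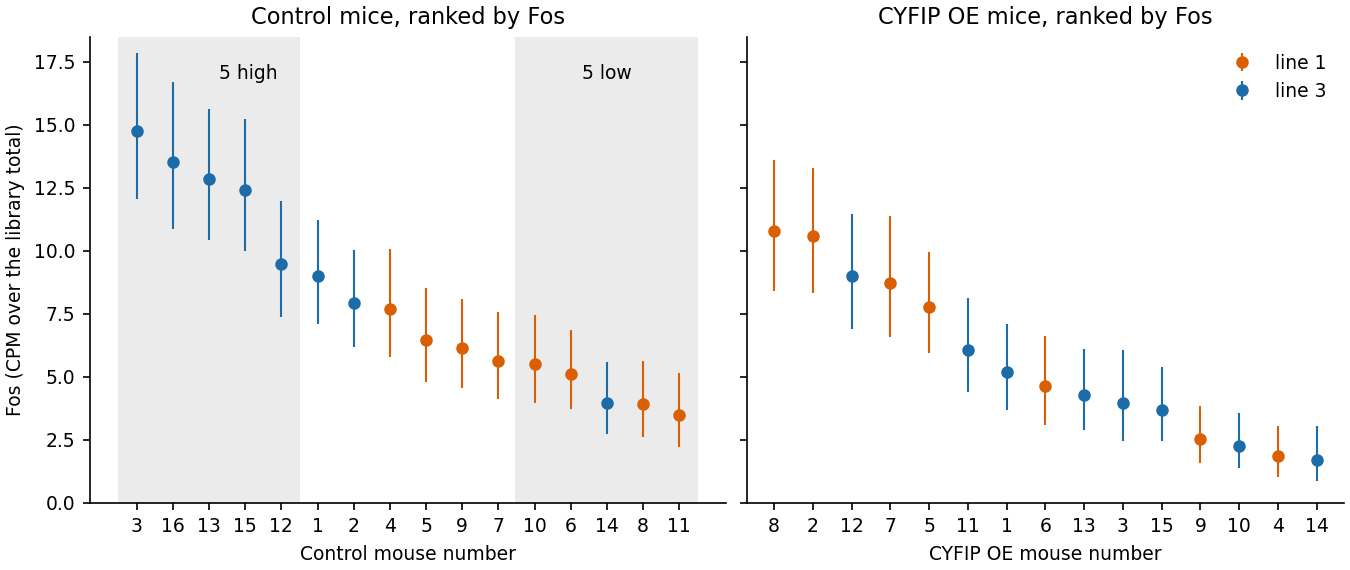
Fos level of each mouse, in CPM over the library total (y axis), with mice ranked by Fos along the x axis in Control mice (left) and CYFIP OE mice (right). Points are mice, bars are exact 95% Poisson intervals of the Fos count, colours are the transgenic lines and grey bands mark the 5 high-Fos and 5 low-Fos Control mice. The 5 high-Fos mice are all of line 3 and 4 of the 5 low-Fos mice are of line 1, whereas in the CYFIP OE mice line 1 runs from 1.85 to 10.8 CPM and line 3 from 1.70 to 9 CPM.

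The transgenic line nearly coincided with the groups. All 5 high-Fos mice came from line 3, and 4 of the 5 low-Fos mice came from line 1. Over all 16 Control mice Fos was 10.5 ± 3.57 CPM (SD, n = 8) in line 3 and 5.50 ± 1.36 CPM (SD, n = 8) in line 1. The high-Fos mice were 3 males and 2 females, and the low-Fos mice 1 male and 4 females. Line 1 has no high-Fos mouse and line 3 has 1 low-Fos mouse, so high Fos and line 3 cannot be told apart in these groups. The names of Control mice 4 to 10, all of line 1, begin with the same code, whose meaning the labels do not give. They were aged 61 days and the other Control mice 58 to 60 days. Of them mice 6, 8 and 10 were low-Fos and none was high-Fos. Line, this code and age cannot be told apart for these mice. Differences are therefore also given, for most genes and lists, after sex and line were removed by linear regression over the 16 Control mice, which reduced the log2 difference in Fos itself from 1.20 to 0.49. In the CYFIP OE mice both lines held high and low values, 1.85 to 10.8 CPM in line 1 (n = 7) and 1.70 to 9 CPM in line 3 (n = 8). These values rest on 11 to 75 Fos reads.

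Library totals were 6422235 to 7701876 counts in the high-Fos and 6904293 to 8627443 in the low-Fos mice, and 5286925 to 8662919 in the CYFIP OE mice. One library stood apart, CYFIP OE mouse 1, with a connectivity Z-score (its summed correlation-based adjacency to the other libraries, standardized) of -4.74 where the next lowest was -1.17. All 13 markers of BLA principal neurons in the list used here were detected in all 10 mice, with a summed level of 669 to 1037 CPM in the high-Fos and 533 to 882 CPM in the low-Fos mice. Among the 6 mice between the groups, Control mouse 5 had 3.03 CPM of Slc17a7, the vesicular glutamate transporter of these neurons, and 0.350 CPM of Neurod6. Mouse Cyfip1 ranged from 23.0 to 39.1 CPM in the Control and from 25.1 to 37.8 CPM in the CYFIP OE mice, so the ranges overlapped. Reads were mapped to the mouse genome, and this gene is no check of the human transgene. In bulk tissue, fewer cells of a type and less RNA per cell cannot be told apart.

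The 250 bases before the RefSeq start of Fos, Fosb and Jun (GRCm38.p6) are shown because these AP-1 genes carry the comparison that follows. Capitals mark the CRE core TGACG on either strand, the letters shared by binding sites of the CREB family. The sequences run 5′ to 3′ on the strand of each gene, at chr12:85473640-85473889 (plus strand), chr7:19310046-19310295 (minus strand) and chr4:95052223-95052472 (minus strand).
Fos: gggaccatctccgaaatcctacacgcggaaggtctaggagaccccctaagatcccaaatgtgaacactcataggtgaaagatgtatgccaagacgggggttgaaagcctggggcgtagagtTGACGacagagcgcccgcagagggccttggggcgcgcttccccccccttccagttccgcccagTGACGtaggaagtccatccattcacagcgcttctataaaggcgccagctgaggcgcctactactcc
Fosb: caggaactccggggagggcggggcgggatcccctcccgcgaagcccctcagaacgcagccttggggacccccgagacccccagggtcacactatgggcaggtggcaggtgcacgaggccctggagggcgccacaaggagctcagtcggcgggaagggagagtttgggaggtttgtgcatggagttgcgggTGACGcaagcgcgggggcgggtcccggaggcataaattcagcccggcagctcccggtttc
Jun: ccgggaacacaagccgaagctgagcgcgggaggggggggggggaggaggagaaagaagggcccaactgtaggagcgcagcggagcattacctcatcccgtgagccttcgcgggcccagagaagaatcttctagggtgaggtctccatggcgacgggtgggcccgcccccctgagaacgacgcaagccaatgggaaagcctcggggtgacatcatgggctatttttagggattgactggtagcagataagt

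The Fos window held the core at 2 places, beginning 66 and 129 bases before the start. Fosb held it at 1 place, 60 bases before the start, and the Jun window did not hold these letters. The core was present in 17.8% of the 32851 RefSeq promoter windows of this length. The full palindrome TGACGTCA, which contains the core, was in 1.55% of windows, the AP-1 letters TGANTCA in 6.75% and a CArG box, the site of serum response factor, in 1.47%. None of these last 3 was in the 3 windows shown. Only these 250 bases were searched, and only for these patterns. Sites farther upstream, or with a letter changed, were not looked for. A match is a run of letters and not a measured site.

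Besides Fos, 5 of the 6 listed members passed the filter on low counts. In 0 of these 5 did the groups fail to overlap in normalized CPM. Of all 17427 genes tested 0.918% were higher without overlap, so that a count of 0 of 5 is at the background. All 5 log2 differences of log2(CPM + 1) were positive, from 0.01 to 0.69, with a median of 0.38 against 0.01 over all genes, and the median was 0.05 with sex and line removed. Fosb, the closest relative of Fos, had 11.1, 6.99, 8.85, 8.22 and 12 CPM in the high-Fos mice and 6.18, 4.97, 3.86, 9.06 and 3.99 CPM in the low-Fos mice, each in order of falling Fos. A low-Fos mouse, Control mouse 8, lay above 3 of the high-Fos mice. The log2 difference of Fosb was 0.69 ± 0.23 (SE), and 0.44 with sex and line removed.

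Jun, the main partner of Fos in AP-1, had 26.1, 23.9, 31.5, 26.5 and 25.5 CPM in the high-Fos mice and 20.3, 19.9, 12.9, 30.6 and 20.2 CPM in the low-Fos mice. Again Control mouse 8, with the second-lowest Fos, had more Jun than 4 of the high-Fos mice. The log2 difference was 0.39 ± 0.20 (SE), and 0.06 with sex and line removed. In the CYFIP OE mice Jun ran from 13.4 to 44.1 CPM with a median of 23.1 CPM. There it rose with Fos, with a slope of 0.60 ± 0.13 (SE) and an edgeR adjusted p of 0.0375, where the slope is the log2 change of the gene for each unit of log2(Fos CPM + 1) at equal sex and line. The call of Jun was kept in 5 of the 15 fits that left out a mouse, with an adjusted p of 0.128 without CYFIP OE mouse 12. Background for this test was 0.844% of 17427 genes called with a positive and 0.184% with a negative slope.

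Of these 5 AP-1 genes only Jun was called by edgeR, and 2 were called by the DESeq2 Wald test, which called 3.29% of all genes. Fosl2, another Fos relative, had a slope of 0.50 ± 0.14 (adjusted p = 0.0892), and Fosb one of 0.59 ± 0.21 (adjusted p = 0.207). Junb, an early-wave partner of Fos, had a log2 difference of 0.33 ± 0.20 in Control mice, 0.05 with sex and line removed, and a slope of 0.14 ± 0.16 (adjusted p = 0.786). Jund, which is expressed without stimulation, had 40.1 to 51.9 CPM in the high-Fos and 42.2 to 53.5 CPM in the low-Fos mice. Its groups covered nearly the same range.

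Of 15 further immediate early transcription factors tested, 0 were without overlap in Control mice and 0 were called by edgeR in the CYFIP OE mice, where 4 of the 15 and 2235 of all genes had an unadjusted p under 0.05, and 2 of the 15 were called by DESeq2. Over all genes, edgeR called 0.844% with a positive and 0.184% with a negative slope and DESeq2 called 3.29%, so that counts of 0 are at the background too. The median log2 difference of the 15 was 0.17, 0.06 with sex and line removed, and their median slope 0.24. Of 24 immediate early effectors, 0 were without overlap and 0 were called by edgeR, with 2 at an unadjusted p under 0.05 and 1 called by DESeq2, and with medians of 0.11, 0.03 with sex and line removed, and 0.09. Over the 44 immediate early genes without Fos, 31 log2 differences and 36 slopes were positive, where 51.2% and 48.3% of all genes were. The median log2 difference of the 44 was 0.16, and 0.04 with sex and line removed.

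Egr1, a zinc finger factor, had 283, 305, 237, 225 and 247 CPM in the high-Fos mice and 276, 215, 339, 212 and 264 CPM in the low-Fos mice. The highest value of all 10 belonged to Control mouse 14, a low-Fos mouse of line 3. The log2 difference was 0.00 ± 0.15 (SE), 0.14 with sex and line removed, and the slope in CYFIP OE mice 0.11 ± 0.25 (adjusted p = 0.91). Arc, which acts on glutamate receptor trafficking at active synapses, had 40.3, 43.0, 25.3, 32.6 and 28.5 CPM against 34.2, 32.7, 39.3, 19.2 and 32.8 CPM. The groups overlapped over most of their range, and the log2 difference was 0.11 ± 0.22, and 0.04 with sex and line removed. Homer1, a postsynaptic scaffold gene with an inducible short form, had 98.8 to 162 CPM against 109 to 166 CPM, with a log2 difference of -0.05 ± 0.16, and 0.10 with sex and line removed. Npas4, a factor induced by calcium in neurons, had 5.30, 15.0, 9.64, 11.9 and 15.0 CPM against 10.1, 9.70, 6.08, 2.33 and 5.76 CPM. The mouse with the most Fos had the lowest Npas4 of the high-Fos mice, and 4 of the 5 low-Fos mice were above it. Its log2 difference was 0.71 ± 0.40, 0.25 with sex and line removed, and its slope 0.00 ± 0.22 (adjusted p = 0.999).

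The largest log2 difference among the 44 immediate early genes was that of Btg2, an antiproliferative early gene, at 1.11 ± 0.32, and 0.58 with sex and line removed. It had 5.81, 9.22, 8.62, 7.58 and 12.7 CPM in the high-Fos mice and 5.93, 6.18, 1.93, 2.59 and 2.21 CPM in the low-Fos mice. In 4 of the 5 high-Fos mice it was above every low-Fos mouse, and the exception was the mouse with the most Fos. Its slope was 0.74 ± 0.23 (adjusted p = 0.146). Nr4a3, an orphan nuclear receptor of the early wave, had a log2 difference of 0.67 ± 0.27, 0.06 with sex and line removed, and a slope of 0.81 ± 0.20 (adjusted p = 0.0671). Its adjusted p was 0.0295 without CYFIP OE mouse 1, and that of Fosl2 was 0.0355. Rgs2, which damps G protein signalling, went the other way in Control mice, with 129.8 to 168 CPM against 154 to 279.7 CPM and a log2 difference of -0.53 ± 0.16, and -0.06 with sex and line removed. The slope of Rgs2 in CYFIP OE mice was negative too, at -0.44 (edgeR adjusted p = 0.2). Without CYFIP OE mouse 1 it was -0.42 (edgeR adjusted p = 0.00929).

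**Figure D2:**
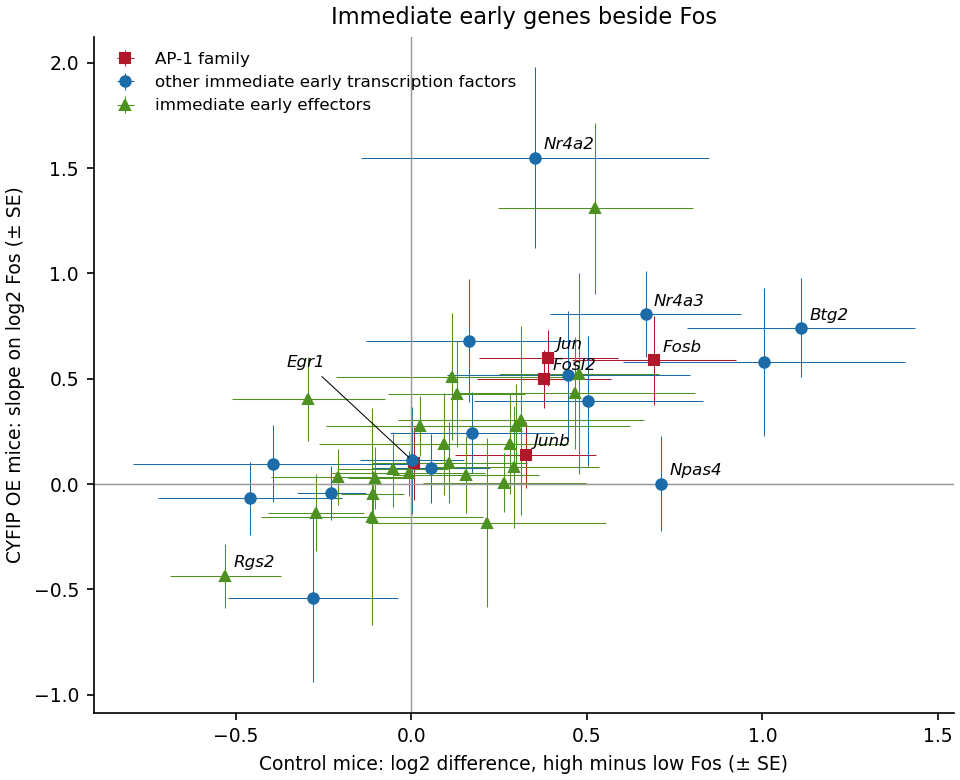
Immediate early genes other than Fos, each a point with its log2 difference between high-Fos and low-Fos Control mice (x axis) and its slope on Fos in the 15 CYFIP OE mice (y axis), with bars of 1 SE. Btg2, Nr4a3, Fosb, Fosl2 and Jun lie to the upper right, while Egr1 lies near 0 on both axes and Npas4 near 0 on the y axis only. Nr4a2, also in the hippocampus and cortex list, lies to the upper right too. It has the largest slope, 1.55, which edgeR did not call.

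Later and upstream genes were described in the same way. None of 12 late response genes was without overlap in Control mice. Their median log2 difference was 0.16, 0.01 with sex and line removed, and their median slope 0.36. In CYFIP OE mice 6 of the 12 had an unadjusted p under 0.05 and 4 were called by DESeq2. Over all 17427 genes these were 2235 and 3.29%. By edgeR 2 rose with Fos and 0 fell, where 0.844% and 0.184% of all genes were called. Nrn1, which encodes neuritin, a secreted factor for neurite growth, had a slope of 2.01 ± 0.37 (adjusted p = 0.0177) and ran from 1.30 to 50.8 CPM over these mice. Without CYFIP OE mouse 4 its adjusted p was 0.0872. In Control mice it was 26.9, 30.2, 32.7, 26.1 and 16.0 CPM against 20.3, 16.5, 6.53, 15.5 and 12.4 CPM. There 4 of the 5 high-Fos mice were above all low-Fos mice, and Control mouse 12 was not. Its log2 difference was 0.89 ± 0.31, and -0.10 with sex and line removed. Bdnf, the neurotrophin gene, had a slope of 1.83 ± 0.37 (adjusted p = 0.0253, and 0.123 without CYFIP OE mouse 4) and a log2 difference of 0.43 ± 0.24 in Control mice, and -0.52 with sex and line removed. Bdnf also stands in the list of BLA principal neuron genes.

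Over all 17427 genes, 2235 had an unadjusted p under 0.05 in the CYFIP OE mice and DESeq2 called 3.29%. Of 24 genes for signalling to the Fos promoter, such as kinases, CREB and serum response factor, 0 were without overlap and 0 were called by edgeR, with 6 at an unadjusted p under 0.05 and 2 called by DESeq2, and medians of -0.05 and 0.08. The 16 glucocorticoid response genes had medians of -0.03 and -0.05, and the 15 heat shock and chaperone genes of -0.04 and 0.03, with 0 called in either list by edgeR or DESeq2 and 2 and 1 genes at an unadjusted p under 0.05. Of 16 clock genes, Per3, a repressor of the clock, was higher without overlap in high-Fos mice, as were 0.918% of all genes. It had 42.1, 48.5, 41.3, 57.0 and 38.8 CPM against 35.6, 36.0, 24.8, 28.6 and 23.2 CPM. Its log2 difference was 0.61 ± 0.16, and 0.42 with sex and line removed. Its slope in CYFIP OE mice had the opposite sign, -0.20 ± 0.10 (adjusted p = 0.423). Bhlhe40, a clock repressor that is also an early gene, had a slope of 0.50 ± 0.12 (adjusted p = 0.0492, and 0.183 without CYFIP OE mouse 4). Of 14 amygdala neuropeptide genes, 6 had an unadjusted p under 0.05 in CYFIP OE mice and 4 were called by DESeq2. By edgeR 2 rose with Fos, where 0.844% of all genes were called with a positive slope. These were Cck, the cholecystokinin gene, with a slope of 1.52 ± 0.33 (adjusted p = 0.0346), and Vip, which marks a class of interneurons, with 1.5 ± 0.33 (adjusted p = 0.0347). Without CYFIP OE mouse 4 the adjusted p of Cck was 0.126, and without mouse 9 that of Vip was 0.12.

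Across all 17427 genes other than Fos, 160 were higher and 160 lower in the high-Fos mice without overlap, 0.918% of genes in each direction. Their median log2 differences were 0.61 and -0.53. Without the normalization for library composition, with CPM over the library total as used for the ranking, 308 were higher and 48 lower, so the share higher went from 50% to 86.5%. The median of all genes was then 0.14, against 0.01 with normalization, and the values here are relative to the latter. The scaling factor of that normalization did not overlap between the groups either. It was 1.047 to 1.145 in the high-Fos and 0.811 to 1.045 in the low-Fos mice, so the balance of the 2 counts depends on the scaling. Of the 160 higher genes, 57 averaged under 5 CPM over the 10 mice, as did 37 of the 160 lower genes.

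Of the 10 largest differences upwards among genes without overlap at 5 CPM or more, 6 belonged to named protein-coding genes and the rest to transcripts without a descriptive name. Chrd, a secreted antagonist of bone morphogenetic proteins, had 9.94, 6.99, 7.37, 6.94 and 9.42 CPM in the high-Fos mice and 5.80, 4.85, 0.890, 5.83 and 1.62 CPM in the low-Fos mice. Myl4, a myosin light chain gene, had 13.7, 15.5, 11.1, 13 and 10.9 CPM against 5.80, 6.91, 3.12, 9.32 and 4.28 CPM. Their log2 differences were 1.10 ± 0.40 and 1.07 ± 0.25, and 0.33 and 0.63 with sex and line removed. Slit2, an axon guidance ligand, had a log2 difference of 0.98 ± 0.29, Fam169a one of 0.82 ± 0.26, Hspa2, of the 70 kDa heat shock family, one of 0.80 ± 0.18, and Nell1, another secreted protein, one of 0.79 ± 0.18. With sex and line removed these 4 were 0.34, 0.27, 0.30 and 0.19.

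Among those downwards, Serpina9, of the serine protease inhibitors, had 2.07, 6.69, 1.02, 4.62 and 2.62 CPM in the high-Fos mice and 10.9, 9.21, 11.1, 6.73 and 10.8 CPM in the low-Fos mice. The groups came close to each other, at 6.69 and 6.73 CPM. Its log2 difference was -1.42 ± 0.36, and -0.10 with sex and line removed. Kcne1l, which encodes a small potassium channel subunit, had 0.595 to 5.30 CPM against 8.08 to 14.7 CPM, a log2 difference of -1.26 ± 0.40, and -0.69 with sex and line removed. Lipe, the gene of hormone-sensitive lipase, had 8.24 to 19.8 CPM against 20.9 to 72.0 CPM. Its log2 difference was -1.26 ± 0.36, -0.51 with sex and line removed, and the highest value was that of Control mouse 14. Dach1, a transcription factor, Syt6, a synaptotagmin, and Thsd7a had log2 differences of -0.95 ± 0.34, -0.95 ± 0.24 and -0.85 ± 0.22. With sex and line removed those of Dach1 and Syt6 were -0.02 each and that of Thsd7a was -0.28.

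With sex and line removed 17 genes were higher and 17 lower without overlap, of which 9 and 7 were among the 160 and 160. The median log2 differences of the 160 higher and 160 lower genes were then 0.28 and -0.22. The 6 mice with intermediate Fos did not always have intermediate levels of other genes. Ppm1e ran from 14.5 to 120.2 CPM in those 6 mice, wider than its range of 20.6 to 46.9 CPM in the other 10. Bdnf was 6.98, 1.05, 2.31 and 1.12 CPM in Control mice 4, 5, 7 and 9, where the lowest low-Fos mouse had 8.27 CPM. Control mice 1 and 2, also of intermediate Fos, had 11.5 and 29.5 CPM of Bdnf.

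The CYFIP OE mice gave a test of which genes go with Fos in mice that the ranking had not touched. There 147 genes had a positive and 32 a negative slope on Fos at an edgeR adjusted p under 0.05, 0.844% and 0.184% of 17427. These counts leaned on single mice. Without CYFIP OE mouse 12 the count of both signs fell from 179 to 15, and without mouse 1, the library that stood apart, it was 703, of which 267 were negative, or 2.5% of genes with a positive and 1.53% with a negative slope. It lay between 21 and 111 without mouse 9, 4, 11, 7, 14, 10, 5 or 2, and was 331 without mouse 8. All 179 genes were still called, with the same sign, without mouse 1. Line 1 alone gave 51 positive and 32 negative calls and line 3 alone gave 0 of each by edgeR, with 1162 genes at an unadjusted p under 0.05. Line 3 without mouse 1 gave 36 and 25. The names of the mice begin with a shared code whose meaning the labels do not give, and the CYFIP OE mice fall into 8 such name groups. With the name group as a block, a fit added after the data were seen in which the slope rests on the 10 mice of the 3 groups with more than 1 mouse, 162 genes were called, among them 81 of the 179. In the Control mice one name group holds both a low-Fos and a high-Fos mouse, Control mice 14 and 15.

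The 10 genes with the smallest p-values and a positive slope include the following. Ppm1e, a phosphatase that switches off calmodulin-dependent kinases, had a slope of 1.18 ± 0.14 (adjusted p = 0.0017), lies at chr11:87226906-87359023 (GRCm38) and ran from 12.3 to 72.8 CPM with a median of 41.7 CPM. Efhd2, a calcium-binding actin regulator, had a slope of 1.18 ± 0.16 (adjusted p = 0.00416), lies at chr4:141858142-141874920 and ran from 29.0 to 169.9 CPM. Ncald, the calcium sensor neurocalcin delta, had a slope of 1.25 ± 0.18, Cnrip1, which binds the cannabinoid receptor, one of 0.79 ± 0.11, and Car10, a secreted neurexin ligand, one of 1.28 ± 0.19. Dlgap1, a scaffold of the postsynaptic density, had a slope of 0.82 ± 0.13 (adjusted p = 0.0114). These 6 genes were called in all 15 fits that left out a mouse. Slitrk1, Kcnf1, Ak5 and Nrp2, which encode a synaptic adhesion protein, a potassium channel subunit, an adenylate kinase and a semaphorin receptor, had slopes of 0.72, 0.98, 1.37 and 1.32 (adjusted p = 0.0114 each), and each was called in 14 of the 15 fits, with an adjusted p of 0.0556, 0.0556, 0.0556 and 0.0668 without mouse 12.

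Of the 32 genes with a negative slope, Git2, which regulates small GTPases at focal adhesions and synapses, was called in all 15 such fits. It had a slope of -0.56 ± 0.09 (adjusted p = 0.0114) and a log2 difference of -0.12 ± 0.09 in Control mice, and 0.12 with sex and line removed. Aldh1a1, an enzyme of retinoic acid synthesis, had a slope of -0.92 ± 0.16 (adjusted p = 0.0114, and 0.0725 without mouse 4). S1pr5 and Gjb1, a sphingosine phosphate receptor and a connexin of oligodendrocytes, had slopes of -1.23 ± 0.24 and -1.08 ± 0.21 (adjusted p = 0.0213 and 0.0216). Kcnip2 and Cacna2d2, subunits of potassium and calcium channels, had slopes of -0.60 ± 0.12 and -0.61 ± 0.13. Without mouse 4 the adjusted p of these 4 genes was 0.106, 0.135, 0.112 and 0.177.

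**Figure D3:**
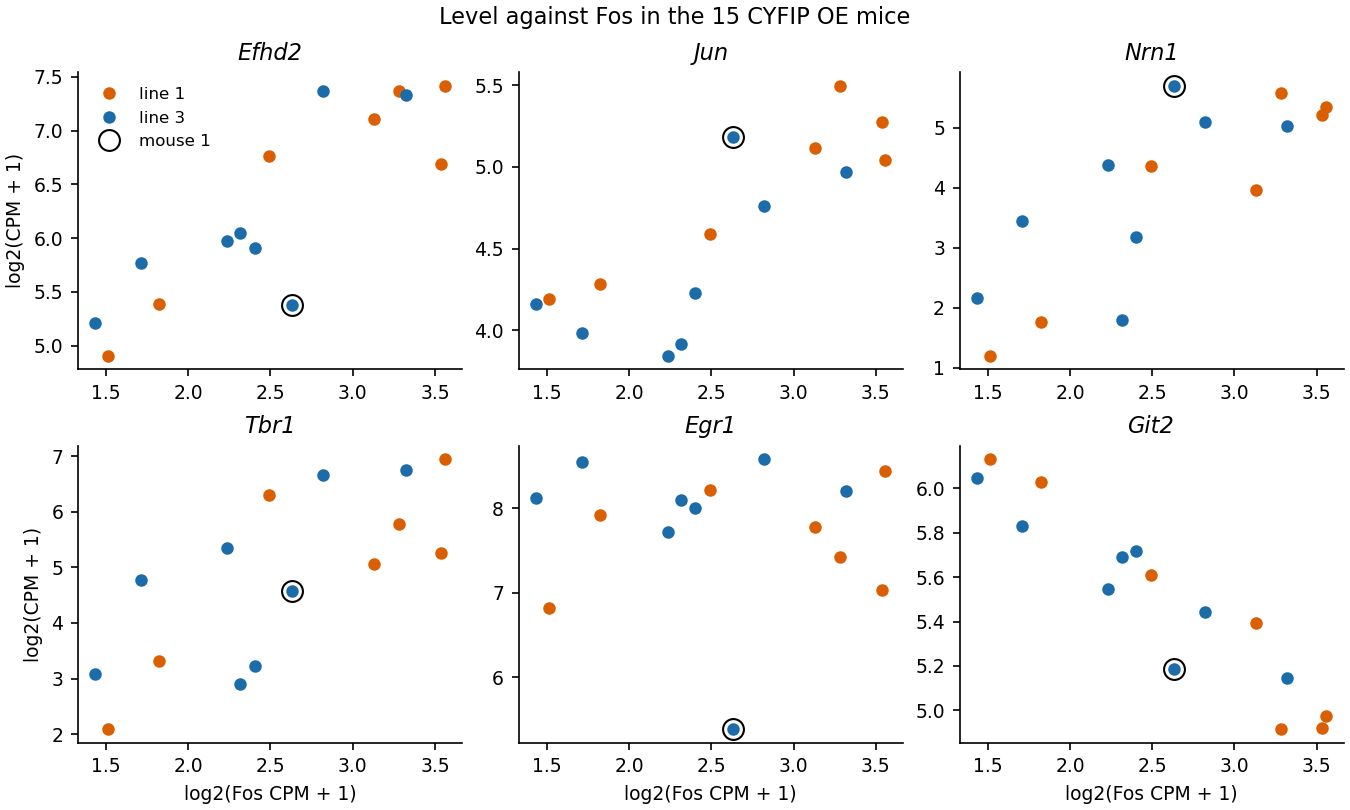
Level of 6 genes in each of the 15 CYFIP OE mice as log2(CPM + 1) (y axes) against log2(Fos CPM + 1) (x axes), coloured by line, with mouse 1 circled. Efhd2, Jun, Nrn1 and Tbr1 are higher and Git2 is lower in mice with more Fos, with adjusted p of 0.00416, 0.0375, 0.0177, 0.0327 and 0.0114, whereas Egr1 (adjusted p = 0.91) shows no called slope.

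The Control and CYFIP OE mice share no animal, so the 2 readings can be set side by side, although 5 name groups hold mice of both. Of the 160 genes higher in the high-Fos Control mice, 121 (75.6%) had a positive slope in the CYFIP OE mice, against 48.3% of all genes. Of the 160 lower genes 136 (85.0%) had a negative slope, against 51.7% of all. In the other direction, 145 of the 147 genes called positive and 29 of the 32 called negative in CYFIP OE mice had a Control log2 difference of the same sign, 98.6% and 90.6% against 51.2% and 48.8% of all genes. With sex and line removed from the Control mice the counts were 111 of 147 and 21 of 32.

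A called slope and no overlap came together in 14 genes, 13 higher with a positive slope and 1 lower with a negative slope, and 0 had opposite signs. The 13 are 8.12% of the 160 higher genes and 8.84% of the 147 positive calls. Over all genes 0.844% were called positive and 0.918% were higher without overlap. The 1 is 0.625% of the 160 lower genes and 3.12% of the 32 negative calls, where 0.184% and 0.918% of all genes were called negative and lower without overlap. Efhd2 had 113, 121, 113, 129.6 and 110.4 CPM in the high-Fos mice and 78.4, 98.7, 73.4, 70.0 and 66.6 CPM in the low-Fos mice. Ncald had 376, 403, 336, 339 and 382 CPM against 311, 287, 197, 253 and 205 CPM. Ppm1e had 43.8, 45.8, 45.1, 46.9 and 39.6 CPM against 29.3, 33.1, 20.6, 34.1 and 21.0 CPM. In each the low-Fos values were more spread than the high-Fos values. Dlgap1 had 551 to 718 CPM against 297 to 523 CPM.

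Of the other members, Snap91 encodes a clathrin assembly protein of synaptic vesicles, Fgf13 a partner of sodium channels, Schip1 a protein of the axon initial segment, Abr a regulator of small GTPases, Ppp5c a phosphatase and Pgm2l1 an enzyme of sugar phosphate metabolism. Their log2 differences were 0.45, 0.26, 0.75, 0.37, 0.54 and 0.43, and their slopes 0.74, 0.47, 0.67, 0.54, 0.54 and 0.77. Chrd and Myl4 had slopes of 1.18 ± 0.23 and 1.56 ± 0.32. The gene with a negative slope was Man2a2, a mannosidase of the Golgi, with 56.5 to 77.9 CPM against 79.5 to 102 CPM and a slope of -0.41 ± 0.09 (adjusted p = 0.032). With CPM over the library total 13 of the 14 kept groups without overlap, all but Man2a2. With sex and line removed 0 of the 14 kept them, and the log2 differences of the 13 higher genes then ran from -0.09 to 0.63 with 10 above 0.

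**Figure D4:**
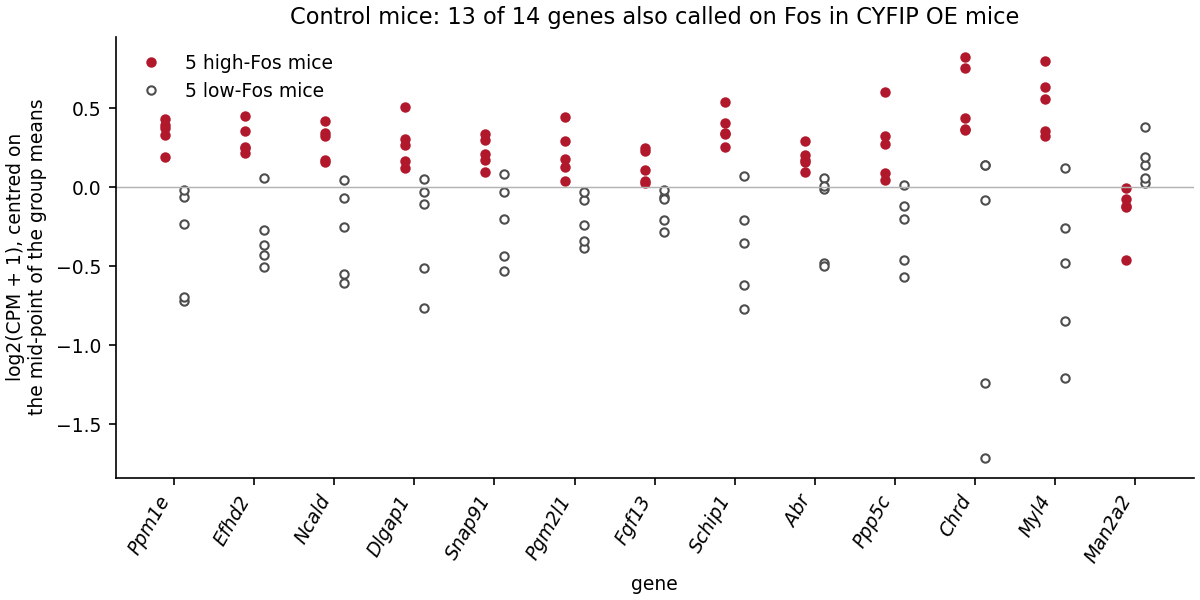
Of the 14 genes without overlap between high-Fos (filled) and low-Fos (open) Control mice and with a called slope in CYFIP OE mice, 13 are plotted. Each point is a mouse, as log2(CPM + 1) centred on the mid-point of the group means (y axis). The 5 high-Fos mice lie above the 5 low-Fos mice for 12 of the plotted genes and below them for Man2a2, and with sex and line removed 0 of the 14 stay apart.

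Markers of cell types in and around the BLA differed along Fos. As background for the counts in these lists, 2235 of all 17427 genes had an unadjusted p under 0.05 in the CYFIP OE mice. DESeq2 called 3.29% of them, and without mouse 1 edgeR called 2.5% with a positive and 1.53% with a negative slope. In the CYFIP OE mice all 13 BLA principal neuron genes had positive slopes with a median of 1.10, and 5 of them were called, where 0.844% of all genes were called with a positive slope. These were Neurod2, Neurod6 and Tbr1, transcription factors of excitatory neurons, with slopes of 1.86 ± 0.43, 1.87 ± 0.44 and 1.81 ± 0.39, Satb1, a chromatin organizer, with 0.80 ± 0.15, and Bdnf. The adjusted p of Neurod2 was 0.153 without CYFIP OE mouse 9, and those of Neurod6, Tbr1 and Satb1 were 0.192, 0.133 and 0.112 without mouse 4. With Fos not logged those of Neurod2, Neurod6, Tbr1 and Bdnf were 0.126, 0.14, 0.0722 and 0.0853, and with DESeq2 size factors that of Neurod6 was 0.0514. Without CYFIP OE mouse 1, 8 of the 13 were called. Slc17a7 had a slope of 1.87 ± 0.45 (adjusted p = 0.0539). The summed level of the list ran from 227 to 1733 CPM over these mice. In the Control mice its median log2 difference was 0.37, with 0 genes without overlap, and -0.16 with sex and line removed.

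All 11 striatal projection neuron genes tested had negative slopes, with a median of -0.64 and 0 called by edgeR, 8 at an unadjusted p under 0.05, 1 called by DESeq2, and 3 called without CYFIP OE mouse 1. In the Control mice their median was also -0.64, and 0.14 with sex and line removed. Their summed level was 1754 to 3014 CPM in the high-Fos mice, 2532 to 5140 CPM in the low-Fos mice and 591 to 5771 CPM in the CYFIP OE mice. Ppp1r1b, which encodes the dopamine signalling protein DARPP-32, had 947, 951, 573, 567 and 1014 CPM against 1174, 1506, 2005, 941 and 1535 CPM. Only the lowest of the low-Fos mice, Control mouse 8, reached the high-Fos values. Adora2a, an adenosine receptor gene, had a slope of -0.86 ± 0.21 (adjusted p = 0.0582, and 0.00479 without mouse 1). No gene of either list was at 0 in any of the 10 mice.

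The 10 oligodendrocyte genes also had negative slopes, all 10 of them, with a median of -0.68, 0 called by edgeR, 9 at an unadjusted p under 0.05, 6 called by DESeq2 and 4 called without mouse 1, and a median of -0.27 in the Control mice, -0.21 with sex and line removed. Their summed level overlapped widely, with 1520 to 5478 CPM in the high-Fos and 1985 to 4357 CPM in the low-Fos mice. The 10 microglial genes had a median slope of -0.25 and a Control median of -0.21, -0.09 with sex and line removed, the 10 astrocyte genes -0.15 and -0.07, and the 11 endothelial and mural genes -0.13 and 0.07, with 0 called in each by edgeR and by DESeq2 and 3, 2 and 0 genes at an unadjusted p under 0.05. The 7 oligodendrocyte precursor genes had 0.00 and -0.04, the 8 intercalated and central amygdala genes -0.28 and 0.30, the 7 thalamus and hypothalamus genes -0.19 and 0.11, the 8 hippocampus and cortex genes 0.04 and 0.11, and the 5 blood genes -0.03 and 0.16. Of 12 interneuron genes Vip rose with Fos and Pvalb fell, with a slope of -1.18 ± 0.27 (adjusted p = 0.042, and 0.211 without mouse 4). Of 13 genes encoded in mitochondria all had negative slopes and negative Control differences, with medians of -0.22 and -0.29. The Control median was -0.03 with sex and line removed, and of the slopes 0 were called by edgeR, 8 had an unadjusted p under 0.05, 2 were called by DESeq2 and 5 were called without mouse 1. One of them, mt-Nd1, was lower without overlap, as were 0.918% of all genes. It had 5154, 5006, 3911, 5212 and 3823 CPM against 5477, 5252, 6144, 5215 and 6065 CPM. The groups nearly touched, at 5212 and 5215 CPM, and its slope was -0.21 (edgeR adjusted p = 0.296).

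The 7 choroid plexus and ependyma genes had a median slope of 0.93, with 6 positive, 0 called by edgeR, 4 at an unadjusted p under 0.05, 2 called by DESeq2 and 3 called without mouse 1. Their Control median was 0.30, and -0.07 with sex and line removed. Ttr, the leading gene of this list, had a slope of 2.08 ± 0.80 (adjusted p = 0.253, and 0.0169 without mouse 1). In the Control mice its groups overlapped, with 13.2, 16.1, 1885, 4077 and 303 CPM against 117, 72.1, 283, 1660 and 85.2 CPM. The part of cell composition, line or sex in the genes that go with Fos was not tested. The medians of the principal neuron and striatal lists had opposite signs in both sets of mice, and in the Control mice both changed sign with sex and line removed.

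**Figure D5:**
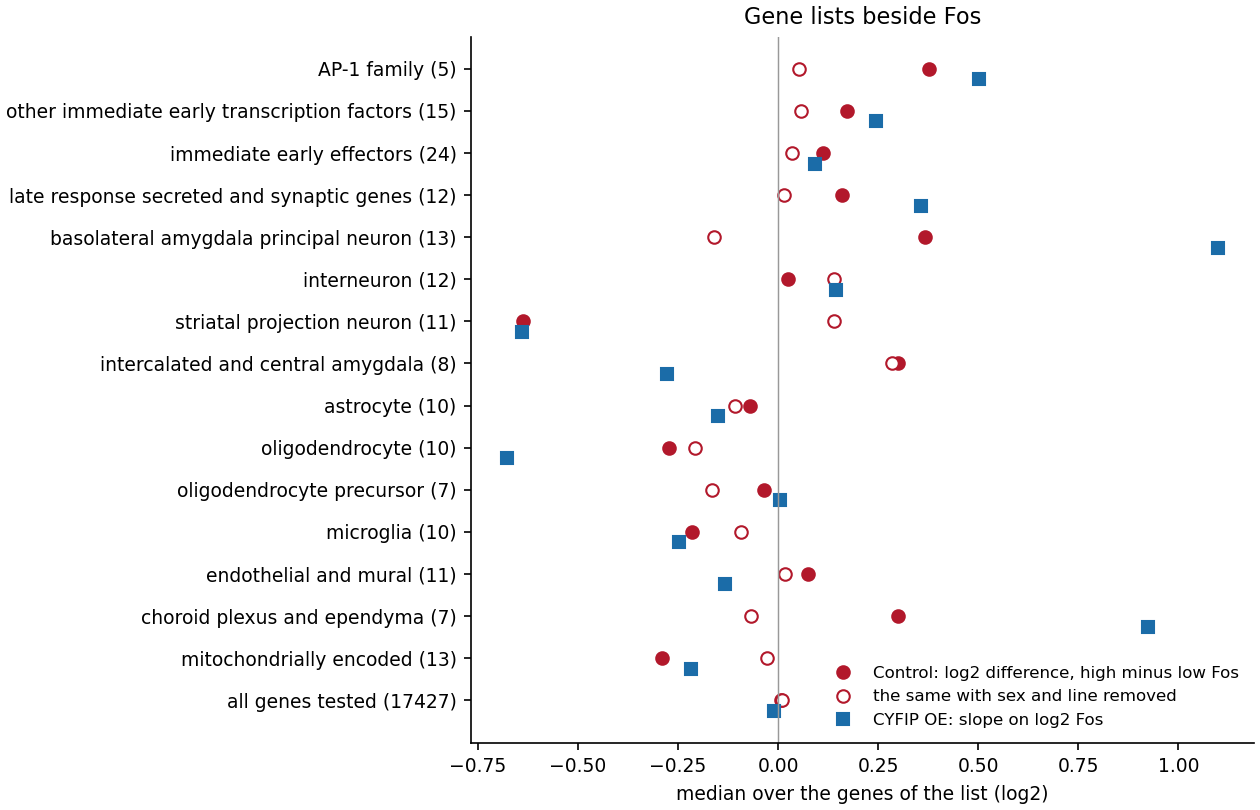
Medians over gene lists (y axis, number of genes tested in parentheses) on the log2 scale (x axis), as the log2 difference between high-Fos and low-Fos Control mice (filled circles), the same with sex and line removed (open circles) and the slope on Fos in the CYFIP OE mice (squares). BLA principal neuron genes reach a median slope of 1.10 and striatal projection neuron genes one of -0.64, and the Control medians of both change sign, from 0.37 to -0.16 and from -0.64 to 0.14, with sex and line removed.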

How the data were processed

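RNA from BLA punches of 31 mice, each taken as 1 replicate, was sequenced by QuantSeq. The authors aligned reads against GRCm38 using STAR, ran Salmon for quantification, and deposited estimated counts for each mouse, neither normalized nor filtered, for 48709 Ensembl genes, of which the GENCODE annotation of the same build named 48349. Totals were 5286925 to 8685521 counts, and genes with few reads carry counting error on top of spread between mice.

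Counts were rounded, and a gene was kept if 20% of the mice or more had 10 or more reads of it. After Fos was set aside, 17427 were tested. CPM in comparisons were scaled by TMM (edgeR 4.0.16, R 4.3.3), which corrects for library composition. Fos CPM used for ranking and as a regressor were not. Control groups of 5 were described by overlap and by the difference of mean log2(CPM + 1), with no test. Slopes on log2(Fos CPM + 1) in the 15 CYFIP OE mice were tested by edgeR's two-sided quasi-likelihood F test, adjusting for sex and line, and p-values were corrected by Benjamini-Hochberg over all 17427 genes. The sequencing components that the authors added as covariates were not used here, and no mouse was left out of the main results, although the authors set aside libraries with a connectivity Z-score under -2. On counts simulated for these 15 mice, 182 of 200 genes given a slope of size 1 in either direction were called, with 9 false calls. Only genes with higher counts were given slopes, and each gene was drawn independently. The simulation held no separate effect of line, sex or a single library, and no error in Fos. It therefore cannot give the rate of recovery or of false calls in the real libraries.

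The ranking, the gene lists and the tests were chosen with earlier results of these data known. Named genes were immediate early genes at 5 CPM or more in Control mice, the 10 largest differences and 10 smallest p-values in each direction, list members that were called or without overlap, and leading markers, of which not all are printed and a few are not reported here. Alternatives changed the normalization, filter, pseudocount, group size, covariates, scale of Fos, test (DESeq2 1.42.0) and mice. Overlap of 3′ ends between neighbouring genes could not be resolved from gene-level counts.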

Additional observations from a re-analysis of the deposited data

Results flagged for a closer look

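Within the groups of 5 Control mice, 8 single values lay far from the other 4 by Dixon's ratio of gap to range, whose 95% critical value for 5 samples is 0.71. With 140 groups of values checked, chance alone flags about 1 in 20. Control mouse 14, the 1 low-Fos mouse of line 3, was the highest of the low-Fos mice for Kcne1l (ratio 0.949, 14.7 CPM with the next at 8.41), Lipe (ratio 0.784, 72.0 CPM with the next at 32.0) and Aldh1a1 (ratio 0.748, 31.2 CPM with the next at 20.1). Control mouse 8 was the highest low-Fos mouse for Ttr (ratio 0.868, 1660 CPM with the next at 283) and the lowest for Ier5 (ratio 0.719, 54.5 CPM with the next at 84.4). Control mouse 11 was the highest low-Fos mouse for Pvalb (ratio 0.828, 68.6 CPM with the next at 31). Among the high-Fos mice, Control mouse 16 was the highest for Bdnf (ratio 0.776, 23.3 CPM with the next at 16.8) and Control mouse 12 the lowest for Ak5 (ratio 0.717, 13.2 CPM with the next at 20.2). No cause of these values was tested.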

How the results depend on the processing

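In the Control mice, the counts of genes without overlap, 160 higher and 160 lower, were 308 and 48 with CPM over the library total, 547 and 432 with 4 against 4 mice, 52 and 71 with 6 against 6, and 17 and 17 with sex and line removed. Leaving out a mouse gave 201 to 331 higher and 214 to 316 lower genes, since smaller groups overlap less often by construction, and a count moved by over 1.5 times without Control mouse 3, 16, 15, 12, 10, 8 or 11. DESeq2 size factors, no filter and ranking by TMM-normalized Fos, the last chosen after seeing the data, kept both counts within 1.5 times. The median log2 difference of the 44 immediate early genes, 0.16, ran from 0.07 to 0.23 with a mouse left out and from 0.04 (sex and line removed) to 0.31 (library totals) otherwise. The spread between mice was 0.237, which is not the error of a median over 44 genes. Most of the median was therefore lost with sex and line removed. In the CYFIP OE mice, 179 calls with 32 negative became 573 with 188 negative by the DESeq2 Wald test, 402 with 123 without covariates, 360 with 118 without the filter, where 30564 genes were tested, 62 with 9 with Fos not logged, 703 with 267 without mouse 1, and 83 in line 1 alone. Line 3 alone gave 0 with 0, and 61 without mouse 1, an alternative added after the data were seen. Leaving out each mouse gave 15 to 703 calls with 2 to 267 negative, and the cause was not tested. For 70 named genes the Control differences were recomputed with DESeq2 size factors, where 0 reversed, and the slopes with DESeq2 size factors, Fos not logged and without mouse 1. No called slope reversed, the slope of Npas4, 0.0026 (adjusted p = 0.999), turned to -0.0043, -0.0011 and -0.0017 in these, 3 calls were lost with DESeq2 size factors (Bhlhe40, Ppp5c, Neurod6), 17 with Fos not logged, and 11 were gained without mouse 1. No paired analysis was possible because replicate numbers are in accession order and do not pair mice. With the name group as a block, added after the data were seen, 162 genes were called, 44 of them negative. Counts of 24 to 106 Fos reads limit the ranking. In the CYFIP OE mice the regressor rests on 11 to 75 Fos reads, and the SE and p of the slopes leave out its counting error.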

Other observations

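The slopes of the 2 lines in the CYFIP OE mice differed for 1 of 17427 genes by the edgeR test of an interaction of line and Fos, added after the data were seen, with 961 genes at an unadjusted p under 0.05. The gene was Gm26699, an unnamed transcript, with a slope of -6.46 in line 1 and 6.66 in line 3 (adjusted p = 0.0186). It was chosen after its values were seen.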
